A study of Mus musculus with 18 samples.

Results

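The 10 genes described here, called carriers below, serve the uptake or release of sugars, peptides, amino acids and bile acids in the small intestine. They were followed through the growth of mouse intestinal organoids, which are epithelial structures cultured from intestinal cells. These 10 genes were chosen by symbol from the 24116 rows of the expression table. They are Slc5a1, Slc2a2 and Slc2a5 for sugars, Slc15a1 for peptides, Slc6a19, Slc7a9, Slc3a1, Slc7a7 and Slc1a1 for amino acids, and Slc10a2 for bile acids. All organoids were C57BL/6 wild type and came from 3 lines, which the titles give as 3 mice. The labels give an age of 8 weeks for every library at every day, so this is not the time in culture. Day 0 to day 5 gave 6 groups of 3 libraries, 18 in all, each made from the RNA of 30 pooled wells. Every group grew in medium with EGF, Noggin and R-spondin. Until day 3 it also held 20% medium conditioned with Wnt3a and 10 µM Y-27632, which inhibits ROCK. On the first day alone it held 3 µM CHIR99021, an inhibitor of GSK3, so day and medium changed together. Replicate 2 of days 1 and 2 shares mouse 1 with replicate 1, and replicate 1 of every day had no DNase treatment.

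Enterocytes absorb digested food across a brush border membrane that faces the lumen and a basolateral membrane that faces the blood. At the brush border, SGLT1 (Slc5a1) takes up glucose and galactose with sodium, GLUT5 (Slc2a5) takes up fructose, PEPT1 (Slc15a1) takes up small peptides with protons, and B0AT1 (Slc6a19) takes up neutral amino acids with sodium. The light chain b0,+AT (Slc7a9) and the heavy chain rBAT (Slc3a1) form 1 exchanger for cystine and cationic amino acids. On the basolateral side, GLUT2 (Slc2a2) releases sugars and y+LAT1 (Slc7a7), which pairs with the heavy chain 4F2hc (Slc3a2), releases cationic amino acids.

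Levels are in RPKM, which scales the reads of a gene to its length and to the library. Libraries held an implied 43010000 to 53930000 reads, and a call below is an adjusted p under 0.05 in limma, a linear model fitted to log2(RPKM + 1) of all 11111 genes tested. Changes are differences on that scale, which understates low genes. Villin (Vil1), a brush border protein, was present at 152 to 393 RPKM, while the summed RPKM of 10 mesenchymal, 10 immune and 8 endothelial markers was 0.708 to 6.57, 0.673 to 3.93 and 0.0677 to 0.428. The proximal factor Gata4 was at 41.7 to 85.5 RPKM. Fabp6, the ileal bile acid binding protein, was at 0 in 6 libraries and at most 2.31 RPKM. Other distal markers went otherwise, and Fgf15 reached 39.9 RPKM in day 3 replicate 2. From day 0 to day 5, 2 of 4 tested distal markers (Slc51a and Slc51b among those listed) were called higher and none lower (median change 1.86). Of 5 proximal markers, 1 was called higher and 1 lower (0.06). Over all genes tested, 11.4% rose and 13% fell. A set of 3 libraries stood apart from the others of their day. Day 0 replicate 1 had Krt20, a marker of mature enterocytes, at 91.9 RPKM against 4.30 and 6.81. Day 3 replicate 2 and day 4 replicate 3 had 20 enterocyte markers at a summed 3985 RPKM (16116 and 8151 in the others) and 5933 RPKM (38144 and 20051). At day 3, replicate 1 stood above the middle library as replicate 2 stood below it, and limma's library weight was lower for replicate 1 (0.371) than for replicate 2 (0.611). Replicate 2 of day 2 stood above its day in the same sum (16379 against 4627 and 3833 RPKM). It is not in that set, and leaving it out alone changed no carrier's call between 2 days. The F test over days then called 6 carriers (31.3% of all genes), against 4 (25.3%) in the full set. In bulk RNA, a change in the share of a cell type and a change in RNA per cell cannot be told apart. The p-values measure the spread between these libraries.

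Of the 10 carriers, 7 rose between day 0 and day 5, namely Slc2a5, Slc2a2, Slc15a1, Slc6a19, Slc5a1, Slc7a9 and Slc7a7. Over all genes tested, 11.4% rose and 13% fell in the same comparison. None of the 10 fell. The members' median change was 2.30 against -0.17 over all genes tested, and 8 of the 10 had every day 5 value above every day 0 value (19.2% of all genes did). The comparison of day 5 with day 1 called 4 carriers higher (11.8% of all genes) and Slc10a2 lower (16.1%), with a median of 1.36 against -0.15. Every day 5 value lay above every day 1 value for 7 carriers (19% of all genes) and below for Slc10a2 (33.8%). Between day 0 and day 1, Slc10a2 alone was called, as higher (9.54% of all genes rose and 9.05% fell), although 5 of the 10 carriers had every day 1 value above every day 0 value (21.6% of all genes). The 4 later steps of a single day called no carrier, and none had an unadjusted p under 0.05 in limma, which 2.37%, 0.432%, 4.87% and 4.09% of all genes had from day 1 to 2, 2 to 3, 3 to 4 and 4 to 5. Over all genes, the share called higher was 0% from day 1 to day 2 and from day 2 to day 3, 0.036% from day 3 to day 4 and 0.189% from day 4 to day 5, and none was called lower. limma's F test over all 6 days called Slc2a5, Slc5a1, Slc15a1 and Slc6a19 (25.3% of all genes). The F test called none of them in the 12 DNase-treated libraries alone, where 5 had an unadjusted p under 0.05 in limma and 12.6% of all genes were called. Leaving out 1 library, it called 1 to 8 carriers (14.6% to 45.4% of all genes). Between day 0 and day 5 the DNase-treated libraries called 3, Slc2a2, Slc2a5 and Slc15a1 (11.8% of all genes against 24.4% in the full set). Without replicate 1 of day 5 that comparison called 2 (7.97% of all genes), and without replicate 3 of day 0 it called 3 (13.2%). The 5 calls between day 1 and day 5 came to 2 or 3 without replicate 1 or 2 of day 1 or any replicate of day 5. In these runs 13.3% to 16.3% of all genes were called, against 27.8% in the full set.

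The day 1 differences of the 4 other carriers that lay wholly above day 0 were 1.74 ± 0.74 (SE; adjusted p = 0.114) for Slc2a2, 1.25 ± 0.67 (SE; adjusted p = 0.211) for Slc15a1, 1.02 ± 0.48 (SE; adjusted p = 0.157) for Slc7a9 and 0.74 ± 0.33 (SE; adjusted p = 0.138) for Slc7a7. With only days 0 and 1 in the fit, Slc2a2, Slc7a9 and Slc7a7 were called and Slc10a2 was not (adjusted p = 0.0163, 0.0326, 0.0294 and 0.0677). Slc7a7 was also called without replicate 3 of day 4 or without the 3 libraries that stand apart (0.0488 in both), and Slc15a1, Slc7a9 and Slc7a7 with limma's library weights (0.0368, 0.0166 and 0.0134). The other 5 carriers, Slc5a1, Slc2a5, Slc6a19, Slc3a1 and Slc1a1, had overlapping libraries at days 0 and 1, with differences from -0.39 (Slc5a1) to 0.13 (Slc6a19).

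**Figure D1:**
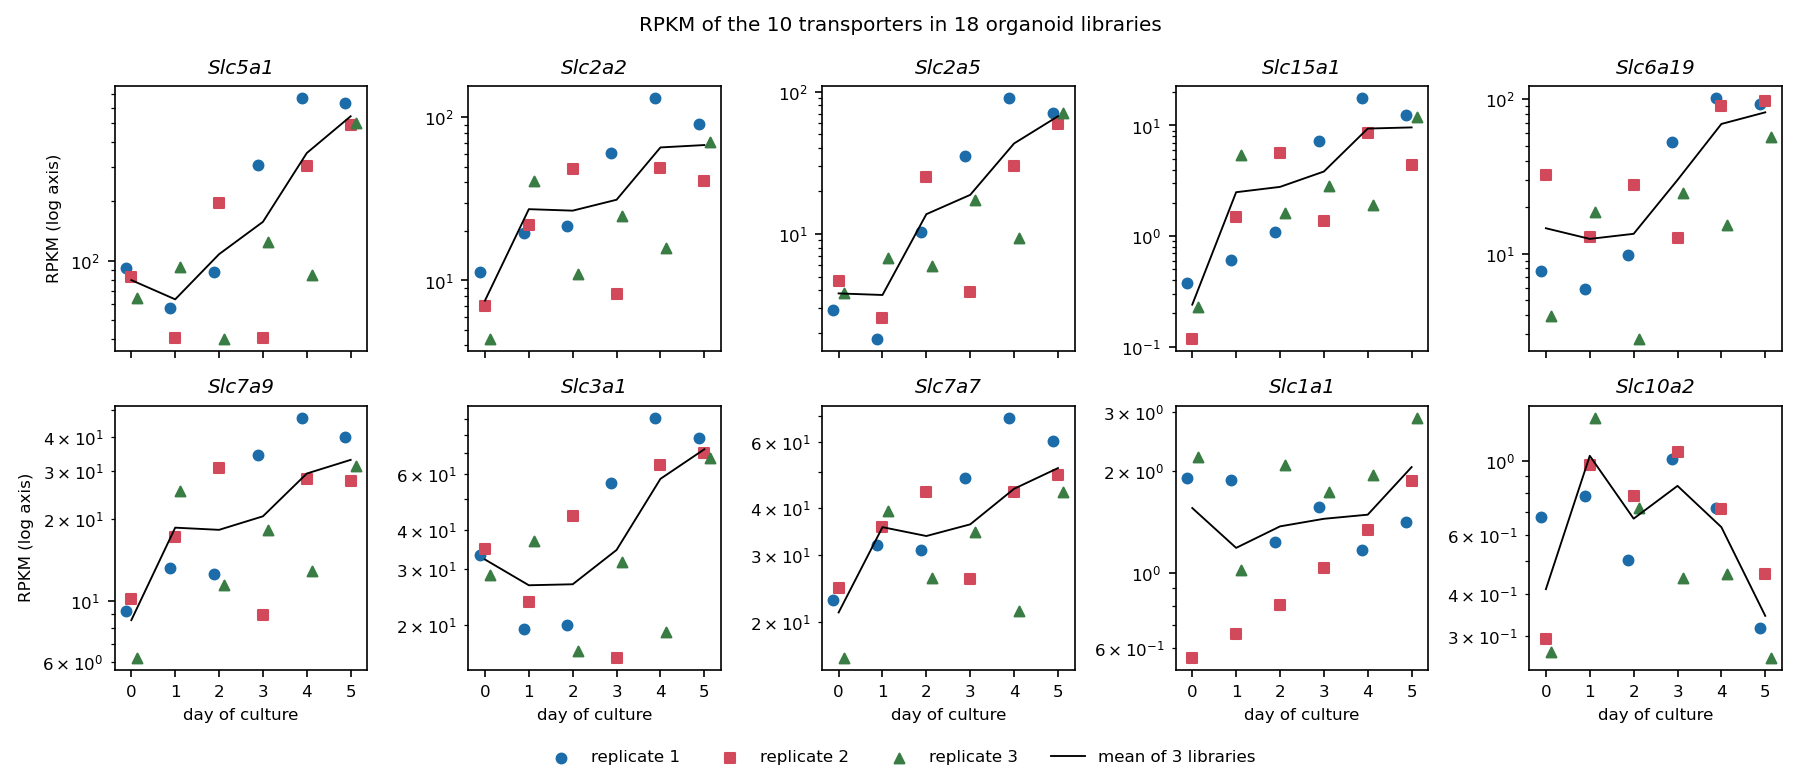
RPKM of each carrier (log axis) against day of culture in all 18 libraries, with the replicate shown by symbol and the mean of 3 libraries as a line. The 3 libraries of days 2 to 4 lie far apart for most carriers, Slc1a1 stays between 0.560 and 2.88 RPKM, and Slc10a2 has its highest mean at day 1.

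**Figure D2:**
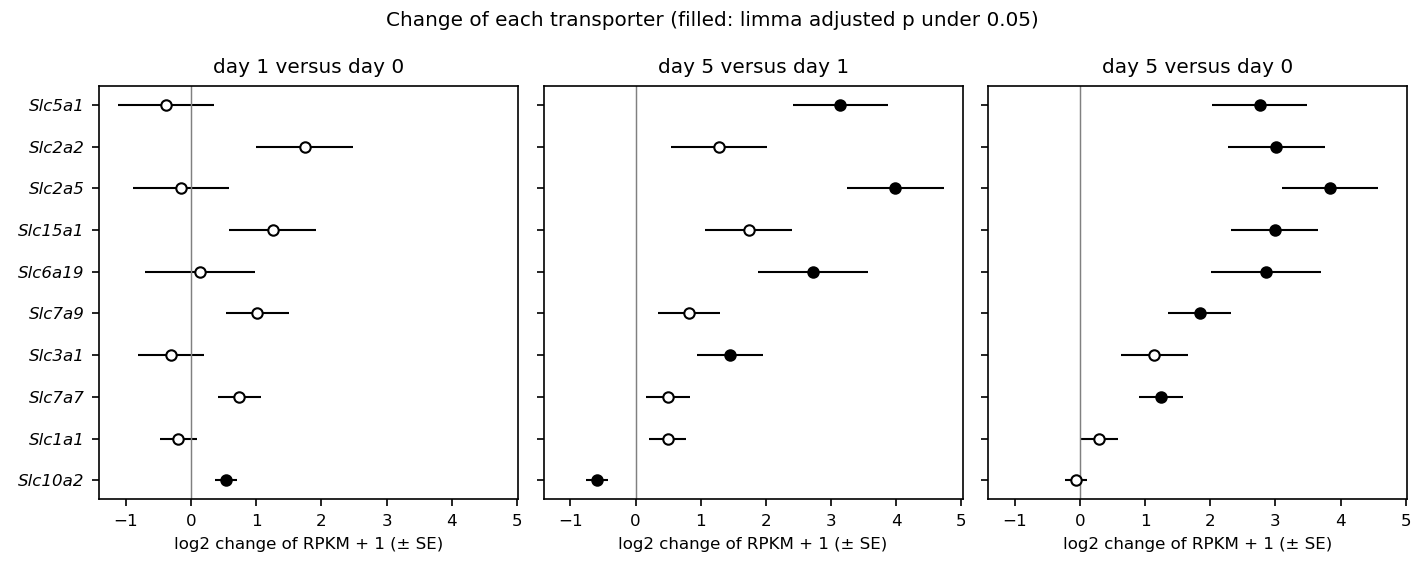
Difference in log2(RPKM + 1) with its SE for each carrier in 3 comparisons, where filled points have a limma adjusted p under 0.05. Filled points number 1 in day 1 versus day 0, 5 in day 5 versus day 1 and 7 in day 5 versus day 0.

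The sugar carriers held the highest level of the set and, on the log2(RPKM + 1) scale, its largest change from day 0 to day 5. Slc5a1 (Entrez 20537, chr5:33104219-33162699 in mm10) was at 92.0, 82.4 and 64.3 RPKM in replicates 1, 2 and 3 of day 0, at 57.6, 40.4 and 92.6 at day 1 and at 87.8, 195 and 40.2 at day 2. It was at 307, 40.4 and 124 RPKM at day 3, at 671, 302 and 84.5 at day 4 and at 633, 492 and 499.7 at day 5. All day 5 libraries lay above all libraries of days 0 to 3, and the day 4 libraries spread from a day 0 level to above day 5. Slc5a1 rose 6.80-fold in mean RPKM between day 0 and day 5, a change of 2.76 ± 0.73 (SE; adjusted p = 0.0169), and by 3.14 ± 0.73 (SE; adjusted p = 0.00852) between day 1 and day 5. At day 1 its libraries overlapped those of day 0 (adjusted p = 0.760). The rise from day 0 lost its call in the DNase-treated libraries (adjusted p = 0.0630), without replicate 3 of day 0 (0.0543) and without replicate 1 of day 5 (0.0673), while the rise from day 1 kept it in every alternative run (highest adjusted p = 0.0442).

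Slc2a5 (Entrez 56485, chr4:150119344-150144168), the fructose carrier, had that largest change, although the peptide carrier Slc15a1 had the larger ratio of mean RPKM (39.9 against 17.6) and the larger change with 0.1 RPKM added in place of 1 (4.76 against 4.12). Its libraries were at 2.90, 4.67 and 3.84 RPKM at day 0, 1.83, 2.56 and 6.74 at day 1 and 10.3, 25.0 and 5.93 at day 2. They were at 35.1, 3.92 and 17.3 RPKM at day 3, 90.1, 30.0 and 9.39 at day 4 and 70.4, 59.5 and 71.0 at day 5. Day 5 was the tightest day, with a ratio of 1.19 between its highest and lowest library against 9.59 at day 4. Slc2a5 rose 17.6-fold in mean RPKM from day 0 to day 5, by 3.83 ± 0.74 (SE; adjusted p = 0.00346), and by 3.99 ± 0.74 (SE; adjusted p = 0.00277) from day 1 to day 5. Both calls held in every alternative run, with a highest adjusted p of 0.0260 and 0.0202.

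Slc2a2 (Entrez 20526, chr3:28697903-28728361), the basolateral sugar carrier, was at 11.2, 6.94 and 4.41 RPKM at day 0, and all day 1 libraries, at 19.5, 21.8 and 40.8, lay above them. It was at 21.6, 48.0 and 10.9 RPKM at day 2, 60.7, 8.22 and 24.9 at day 3, 132, 49.1 and 15.7 at day 4 and 91.5, 41.0 and 70.6 at day 5. The difference between day 0 and day 1 missed the threshold (adjusted p = 0.114), but passed when only those 2 days were fitted, with library weights (0.00599) and without the 3 libraries that stand apart (0.0298). Slc2a2 rose by 3.02 ± 0.74 (SE; adjusted p = 0.0119) from day 0 to day 5, and this call was lost without replicate 1 of day 5 (adjusted p = 0.0581). From day 1 to day 5 the difference was 1.28 ± 0.74 (SE; adjusted p = 0.194). Slc2a1 (GLUT1), the carrier of general glucose supply, gave no call between day 0 and day 5 (0.53 ± 0.38 (SE; adjusted p = 0.298)).

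Slc15a1 (Entrez 56643, chr14:121459621-121505254), the peptide carrier, was the lowest of the 10 at day 0 and the eighth at day 5. Its day 0 libraries were at 0.376, 0.119 and 0.227 RPKM, those of day 1 at 0.607, 1.49 and 5.38 and those of day 2 at 1.09, 5.65 and 1.62. Later libraries were at 7.26, 1.38 and 2.86 RPKM at day 3, 17.7, 8.52 and 1.91 at day 4 and 12.5, 4.40 and 11.9 at day 5. No library of any later day came down to the day 0 level. Slc15a1 rose by 2.99 ± 0.67 (SE; adjusted p = 0.00815) between day 0 and day 5, a call that every alternative run kept, with a highest adjusted p of 0.0435. Since the day 0 level lies below the added 1 RPKM, the change was 4.76 with 0.1 added in its place, and the ratio of mean RPKM was 39.9. The libraries stood for 28 to 4477 implied reads of this gene. Its difference between day 1 and day 5, 1.73 ± 0.67 (SE; adjusted p = 0.0637), was called with the mouse as a replicate block (1.99, adjusted p = 0.0392) but not without the block. It was also called when only those days were fitted, with library weights, without the 3 libraries that stand apart, and without replicate 3 of day 1 or replicate 1 or 3 of day 4 (0.0290 to 0.0427).

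Among the amino acid carriers, Slc6a19 (Entrez 74338, chr13:73679745-73700780) changed most and was the least even at the start. Its day 0 libraries were at 7.70, 32.1 and 3.91 RPKM, so that replicate 2 was 8.22 times replicate 3. It was at 5.90, 12.8 and 18.6 RPKM at day 1, 9.73, 27.7 and 2.81 at day 2 and 52.7, 12.5 and 24.8 at day 3. The libraries reached 102, 90.3 and 15.3 RPKM at day 4 and 92.6, 97.6 and 56.6 at day 5, and all of day 5 lay above all of days 0 to 3. Slc6a19 rose by 2.85 ± 0.84 (SE; adjusted p = 0.0254) from day 0 and by 2.72 ± 0.84 (SE; adjusted p = 0.0286) from day 1. The first call was lost in the DNase-treated libraries (adjusted p = 0.144) and without any of replicates 1 and 3 of day 0 or 1 and 2 of day 5 (0.0665 to 0.104). The second was lost in 7 alternatives, among them the DNase-treated libraries (0.207) and leaving out replicate 1 or 2 of day 1 or any replicate of day 5 (0.0515 to 0.110). Tmem27 (collectrin), the partner of B0AT1 in the kidney, did not exceed 0.283 RPKM in any library.

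The 2 chains of the cystine exchanger did not keep a constant ratio. The light chain Slc7a9 (Entrez 30962, chr7:35448727-35466034) was at 9.21, 10.2 and 6.21 RPKM at day 0, 13.2, 17.2 and 25.4 at day 1 and 12.6, 30.7 and 11.5 at day 2. It was at 34.3, 8.92 and 18.2 RPKM at day 3, 47.0, 28.0 and 13.0 at day 4 and 39.9, 27.6 and 31.2 at day 5. The heavy chain Slc3a1 (Entrez 20532, chr17:85028347-85064241) was at 33.2, 34.7 and 28.7 RPKM at day 0, 19.4, 23.6 and 37.0 at day 1 and 19.9, 44.2 and 16.4 at day 2. Later it was at 56.3, 15.6 and 31.6 RPKM at day 3, 91.0, 64.3 and 19.0 at day 4 and 78.3, 70.4 and 67.6 at day 5. Every day 1 library of Slc7a9 lay above day 0, whereas the Slc3a1 libraries of those days overlapped. The light chain rose by 1.84 ± 0.48 (SE; adjusted p = 0.0157) from day 0 to day 5, and its difference from day 1 was 0.82 ± 0.48 (SE; adjusted p = 0.200). For the heavy chain the reverse comparison was called, with a rise of 1.45 ± 0.51 (SE; adjusted p = 0.0461) from day 1 and a difference of 1.14 ± 0.51 (SE; adjusted p = 0.108) from day 0. Whether the chains' changes differed was not tested. The Slc7a9 rise lost its call in the DNase-treated libraries (adjusted p = 0.0566), without replicate 3 of day 0 (0.0583) and without replicate 1 of day 5 (0.0700). The difference of Slc3a1 from day 0 was called when only those days were fitted (0.00099), with library weights (0.00114), without the 3 libraries that stand apart (0.0378) and without replicate 3 of day 4 (0.0412). Its rise from day 1 was lost in 14 alternatives, including 11 of the 18 that leave out 1 library. Among these were any replicate of day 0 or day 5, 1 or 2 of day 1, 1 of day 2, 3 of day 3 and 2 of day 4 (0.0526 to 0.146).

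The RefSeq sequences before the transcript starts of these 2 genes are shown because both chains serve 1 exchanger while their ratio differed between day 0 and day 1. Each line gives the 250 bases before the start on the gene's strand (GRCm38.p6). They lie at chr17:85028097-85028346 on the plus strand for Slc3a1 and at chr7:35448842-35449091 on the plus strand for Slc7a9. For Slc7a9 this is the first of the 2 starts searched. It lies inside the gene interval given above, which begins at 35448727, so the outermost start is not shown. Capitals mark matches, on either strand, to the GATA core AGATAA, the HNF4 core CAAAGT, the HNF1 core GTTAAT and the TATA box TATAAA.
Slc3a1: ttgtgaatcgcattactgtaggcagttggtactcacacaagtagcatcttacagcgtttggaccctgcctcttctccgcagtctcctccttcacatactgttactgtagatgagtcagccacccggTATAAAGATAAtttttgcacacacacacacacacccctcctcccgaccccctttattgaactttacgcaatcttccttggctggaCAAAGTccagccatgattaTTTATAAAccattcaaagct
Slc7a9: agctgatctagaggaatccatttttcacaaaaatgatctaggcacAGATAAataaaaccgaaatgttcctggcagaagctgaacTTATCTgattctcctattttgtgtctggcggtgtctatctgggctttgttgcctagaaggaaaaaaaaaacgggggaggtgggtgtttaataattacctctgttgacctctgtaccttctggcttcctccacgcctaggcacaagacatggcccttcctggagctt
In this stretch Slc3a1 held 3 runs of capitals, of which the first joins a TATA box and a GATA core that overlap. Slc7a9 held 2 GATA cores, 1 on each strand, and neither a TATA box nor an HNF4 core.

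Slc7a7 (Entrez 20540, chr14:54369442-54420068), the basolateral exit for cationic amino acids, had a moderate and even course. Its libraries were at 22.8, 24.6 and 16.0 RPKM at day 0, 31.9, 35.6 and 39.4 at day 1 and 30.9, 44.2 and 26.1 at day 2. They were at 48.2, 26.0 and 34.5 RPKM at day 3, 69.5, 44.1 and 21.4 at day 4 and 60.2, 48.8 and 44.2 at day 5. All libraries of days 1, 2, 3 and 5 lay above the highest of day 0, and at day 4 replicate 3 fell within the day 0 range. Slc7a7 rose by 1.24 ± 0.33 (SE; adjusted p = 0.0178) from day 0 to day 5. The call was lost in the DNase-treated libraries (adjusted p = 0.0618), without replicate 3 of day 0 (0.0700) and without replicate 1 of day 5 (0.0786). Its heavy chain Slc3a2 was at 35.9, 48.3 and 47.8 RPKM at day 0 and 57.1, 58.9 and 51.8 at day 5, a difference of 0.35 ± 0.24 (SE; adjusted p = 0.283), and its highest library was replicate 2 of day 3 at 92.6 RPKM. The ratio of Slc7a7 to Slc3a2 was 0.335 to 0.636 at day 0 and 0.828 to 1.05 at day 5.

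Slc1a1 (Entrez 20510, chr19:28835135-28913960), the carrier EAAC1 of glutamate and aspartate, stayed low throughout. Its libraries were at 1.90, 0.560 and 2.20 RPKM at day 0, 1.88, 0.661 and 1.02 at day 1 and 1.24, 0.804 and 2.08 at day 2. They were at 1.57, 1.03 and 1.74 RPKM at day 3, 1.17, 1.34 and 1.95 at day 4 and 1.41, 1.87 and 2.88 at day 5, from 159 to 810 implied reads. Libraries of all days overlapped, the difference between day 0 and day 5 was 0.30 ± 0.29 (SE; adjusted p = 0.440), and the F test over days gave an adjusted p of 0.733. Slc1a1 also ranked the libraries in another order than the other carriers. Replicate 2 was its lowest library at days 0 to 3, and replicate 3 its highest at days 0, 2, 3, 4 and 5.

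Slc10a2 (Entrez 20494, chr8:5083219-5105287), the sodium-dependent bile acid carrier of the ileum, had its highest mean at day 1. Its libraries were at 0.679, 0.293 and 0.267 RPKM at day 0, 0.785, 0.971 and 1.35 at day 1 and 0.504, 0.786 and 0.723 at day 2. They were at 1.01, 1.06 and 0.447 RPKM at day 3, 0.724, 0.718 and 0.457 at day 4 and 0.317, 0.457 and 0.257 at day 5. The day 1 libraries lay above all of day 0 and all of day 5. Slc10a2 rose by 0.53 ± 0.17 (SE; adjusted p = 0.0392) from day 0 to day 1 and was lower at day 5 than at day 1, at -0.59 ± 0.17 (SE; adjusted p = 0.0198). With 0.1 RPKM added in place of 1 these changes were 1.20 and -1.35. Only 3 libraries reached 1 RPKM, the fewest that admit a gene to the tests, and the libraries held 20 to 99 implied reads. The first call was lost in 8 alternatives (adjusted p from 0.0513 to 0.162), namely both rescalings, fitting only those days, and leaving out replicate 2 or 3 of day 0 or day 1 or replicate 2 of day 4. The second was lost in 4 (0.0527 to 0.0662), namely the DNase-treated libraries and leaving out replicate 3 of day 1 or replicate 1 or 3 of day 5.

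The basolateral partners in bile acid export had higher means at day 1 than at day 0, as Slc10a2 did. Unlike Slc10a2, they had higher means at day 5 than at day 1. Slc51a (OSTα) was at 2.24, 0.537 and 0.592 RPKM at day 0, 7.01, 7.29 and 13.1 at day 1 and 19.0, 19.5 and 23.2 at day 5. It rose by 2.29 ± 0.51 (SE; adjusted p = 0.00628) to day 1 and by 3.43 ± 0.51 (SE; adjusted p = 0.000568) to day 5. Slc51b (OSTβ) was at 2.06, 1.32 and 1.03 RPKM at day 0 and 28.5, 11.0 and 21.3 at day 5, a rise of 3.03 ± 0.65 (SE; adjusted p = 0.00631). Of the 9 tested genes of a list on bile acid handling that does not hold Slc10a2, 1 rose from day 0 to day 1 and 3 rose to day 5, the third being Abcg5, a sterol exporter (1.10 ± 0.38 (SE; adjusted p = 0.0457)), and none fell. Over all genes, 9.54% rose and 9.05% fell to day 1, and 11.4% rose and 13% fell to day 5. At day 5 the export chains stood at 20.6 ± 2.29 and 20.2 ± 8.83 RPKM, while the uptake carrier was at 0.344 ± 0.103 RPKM (SD, n = 3).

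Slc1a1 and Slc10a2 are also the extremes of base composition among the members' promoters, which is why both are shown. The lines give the 250 bases before the start on the gene's strand, at chr19:28834885-28835134 on the plus strand and chr8:5105288-5105537 on the minus strand (GRCm38.p6), with the same matches in capitals.
Slc1a1: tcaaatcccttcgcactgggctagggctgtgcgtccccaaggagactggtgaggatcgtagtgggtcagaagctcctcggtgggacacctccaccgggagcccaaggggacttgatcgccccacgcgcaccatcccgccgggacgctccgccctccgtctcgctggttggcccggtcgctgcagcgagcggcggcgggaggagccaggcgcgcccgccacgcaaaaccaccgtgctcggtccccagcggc
Slc10a2: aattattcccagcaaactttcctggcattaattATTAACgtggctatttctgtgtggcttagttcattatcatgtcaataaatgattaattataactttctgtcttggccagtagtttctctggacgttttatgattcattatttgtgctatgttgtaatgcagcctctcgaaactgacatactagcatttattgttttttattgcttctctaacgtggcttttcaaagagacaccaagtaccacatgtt
The RefSeq window of 300 bases, which runs 50 bases past the start, held 32 CpG at 70.3% G and C for Slc1a1, and 5 CpG at 36.0% for Slc10a2. The other members' windows held 2 to 15 CpG, against a median of 7 CpG and 52.7% over 32851 such windows. None of the cores searched lay in the Slc1a1 window. That of Slc10a2 held 1 HNF1 core, on the opposite strand, and 4 matches to the CDX core TTTAT, which the capitals do not mark.

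Over the members' 15 windows of 300 bases, searched on both strands, the HNF4 core CAAAGT was found for 4 of 10 genes (Slc2a2, Slc15a1, Slc3a1 and Slc7a7), against 14.4% of all windows. The HNF1 core GTTAAT was found for 3 (Slc3a1, Slc7a7 and Slc10a2; 7.1% of all windows), and the GATA core AGATAA for 3 (Slc7a9, Slc3a1 and Slc7a7; 11.2%). The CDX core TTTAT, which every TATA box TATAAA contains on the opposite strand, was found for 4 (40.0%), and the TATA box for Slc3a1 only (13.6%). Members with several starts have more windows, 5 for Slc7a7 and 2 for Slc7a9, so shares per gene and per window are not alike. All windows of Slc7a9, Slc6a19 and Slc7a7 lie inside the gene intervals given above, so the outermost starts of these genes were not searched. These are matches of letters and no evidence of binding.

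The order of the levels changed between the ends of the series. At day 0, Slc5a1 led at 79.6 ± 14.1 RPKM, followed by Slc3a1 at 32.2 ± 3.13 and Slc7a7 at 21.2 ± 4.54 (SD, n = 3), and the libraries of these 3 genes did not overlap. Slc6a19, Slc7a9, Slc2a2 and Slc2a5 came next with overlapping neighbours, then Slc1a1, Slc10a2 and Slc15a1, again overlapping. By day 5, Slc5a1 stood alone at 542 ± 79.6 RPKM. Slc6a19 (82.3 ± 22.3), Slc3a1 (72.1 ± 5.56), Slc2a2 (67.7 ± 25.4), Slc2a5 (67.0 ± 6.46) and Slc7a7 (51.1 ± 8.23) followed, each overlapping the next. Slc7a9 (32.9 ± 6.31), Slc15a1 (9.60 ± 4.52), Slc1a1 (2.06 ± 0.750) and Slc10a2 (0.344 ± 0.103) were each separate from their neighbours. At days 2, 3 and 4 almost all neighbours overlapped, the exception being Slc1a1 above Slc10a2 at days 2 and 4.

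Within a day, most carriers ranked the 3 libraries alike. Replicate 3 was highest and replicate 1 lowest at day 1 for 8 of the 10, replicate 2 highest and 3 lowest at day 2 for 7, replicate 1 highest and 2 lowest at day 3 for 8, and replicate 1 highest and 3 lowest at day 4 for 9. At days 0 and 5 no order held for more than 4. The summed RPKM of 20 enterocyte markers, none of them a member, had these same orders: 3991, 5719 and 9800.0 at day 1, 4627, 16379 and 3833 at day 2, 16116, 3985 and 8151 at day 3 and 38144, 20051 and 5933 at day 4 in replicates 1, 2 and 3. It was 2818, 2671 and 2026 at day 0 and 29961, 24142 and 25986 at day 5. Of these 20 markers, 6 rose from day 0 to day 1, 15 from day 0 to day 5 and 8 from day 1 to day 5, and none fell. Markers of some other epithelial types moved as well: from day 0 to day 5, 8 of 9 tested Paneth cell markers rose (median 4.28), 8 of 10 goblet cell markers (2.47) and 5 of 7 markers of fetal or regenerating epithelium (3.52), and none of these fell. Other types had no marker called higher. Of 9 tested stem cell markers none was called higher and 1 was called lower (median -0.53). The summed RPKM of all 10 listed stem cell markers was nevertheless 247 to 468 at day 0 and 525 to 747 at day 5, without overlap. None of 10 enteroendocrine markers was called (-0.29). Over all genes, 11.4% rose and 13% fell. From day 0 to day 1, all 7 markers of fetal or regenerating epithelium rose (4.85), against 9.54% of all genes. The part of any of these lists in the members' changes was not tested.

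Set against that sum, the carriers differed. Per 1000 RPKM of the markers, Slc5a1 was at 30.9 to 32.7 RPKM at day 0, 7.07 to 14.4 at day 1 and 19.2 to 21.1 at day 5. Slc2a5 was at 1.03 to 1.90 at day 0, 0.448 to 0.687 at day 1 and 2.35 to 2.73 at day 5. Slc15a1 went from 0.0445 to 0.133 at day 0 to 0.182 to 0.459 at day 5, without overlap. Slc3a1 was at 11.8 to 14.2 at day 0 and 2.60 to 2.92 at day 5, Slc7a7 at 7.91 to 9.22 and 1.70 to 2.02, and Slc7a9 at 3.06 to 3.82 and 1.14 to 1.33. Thus Slc2a5 and Slc15a1 were higher at day 5 relative to the marker sum, Slc5a1, Slc3a1, Slc7a7 and Slc7a9 were lower, and Slc2a2 overlapped (2.17 to 3.99 and 1.70 to 3.05). Slc6a19 overlapped as well (1.93 to 12.03 and 2.18 to 4.04), and Slc1a1 (0.210 to 1.09 and 0.0472 to 0.111) and Slc10a2 (0.110 to 0.241 and 0.00988 to 0.0189) were lower. A sum follows its most abundant genes, and the order depends on the summary: the median log2(RPKM + 1) change of the 20 markers from day 0 to day 5 was 2.44, below those of Slc5a1 (2.76) and of Slc2a5, Slc2a2, Slc15a1 and Slc6a19. No test was made of these quotients.

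**Figure D3:**
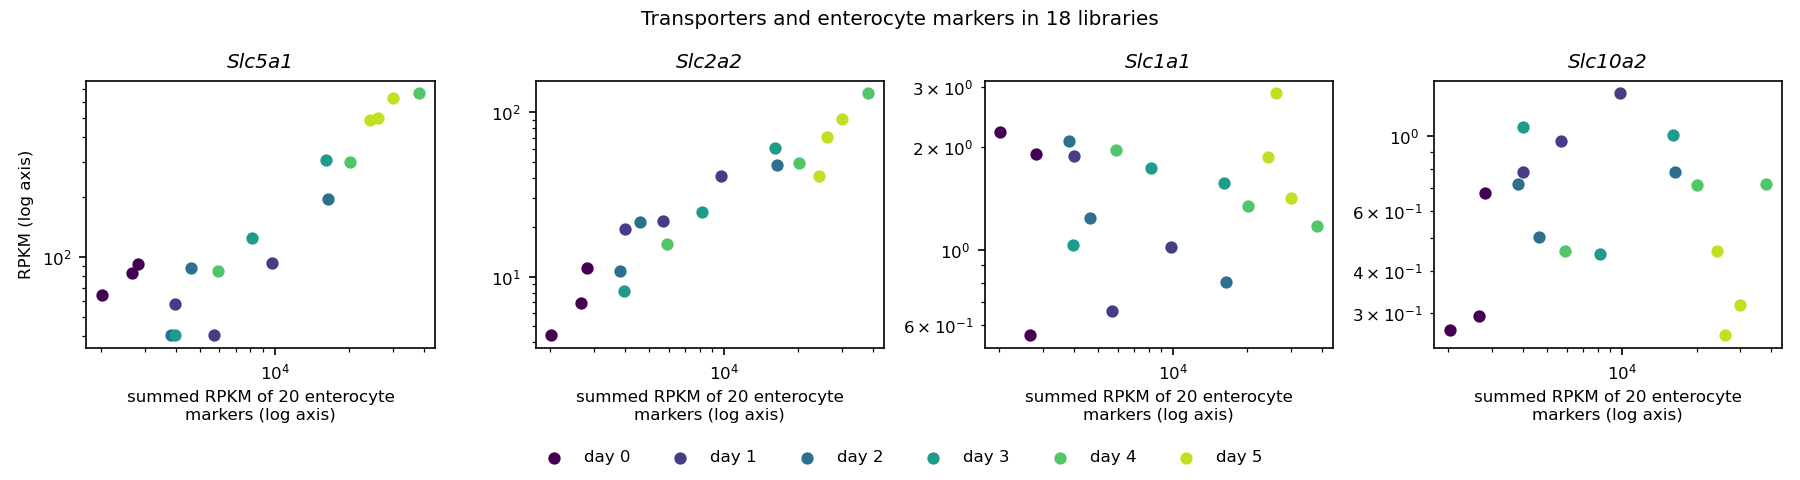
RPKM of 4 carriers (log axis) against the summed RPKM of 20 enterocyte markers (log axis), 1 point for each of 18 libraries, coloured by day. Slc2a2 follows the sum from 2026 to 38144 RPKM, Slc5a1 lies above the trend at day 0, and Slc1a1 and Slc10a2 do not follow it.

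Ratios within a library remove what both genes share. The ratio of Slc3a1 to Slc7a9 was 3.40 to 4.62 at day 0, 1.37 to 1.46 at day 1, 1.43 to 1.58 at day 2 and 1.64 to 1.75 at day 3. It was 1.46 to 2.29 at day 4 and 1.96 to 2.55 at day 5, so that no later library reached the day 0 range. Slc2a2 to Slc5a1 was 0.0685 to 0.122 at day 0, 0.339 to 0.540 at day 1 and 0.245 to 0.272 at day 2. It was 0.198 to 0.203 at day 3, 0.163 to 0.196 at day 4 and 0.0834 to 0.144 at day 5. At day 3 this ratio differed by a factor of 1.03 between libraries, although Slc5a1 itself differed by a factor of 7.60.

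Slc2a5 to Slc5a1 was 0.0315 to 0.0598 at day 0 and 0.0318 to 0.0727 at day 1, and from day 2 on every library lay higher, at 0.117 to 0.148 at day 2 and 0.111 to 0.142 at day 5. Slc7a9 to Slc5a1 was 0.0965 to 0.124 at day 0, 0.230 to 0.425 at day 1 and 0.0562 to 0.0630 at day 5. Slc7a7 to Slc5a1 was 0.248 to 0.299, 0.425 to 0.880 and 0.0884 to 0.0993 at the same days. Both amino acid carriers had their highest mean ratio to Slc5a1 at day 1 and their lowest at day 5. These ratios are descriptions and were not tested.

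**Figure D4:**
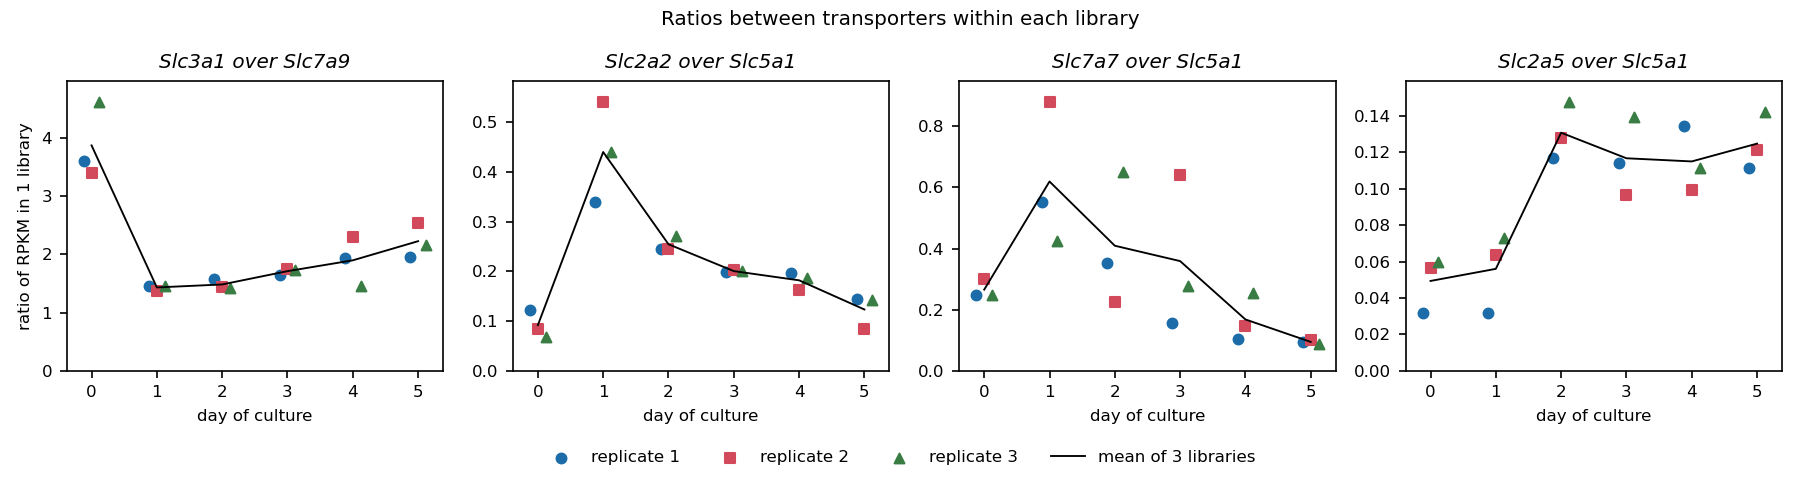
Ratio of the RPKM of 2 carriers in each library against day of culture, with replicates by symbol and the mean of 3 libraries as a line. The ratio Slc3a1 over Slc7a9 is highest at day 0, Slc2a2 and Slc7a7 over Slc5a1 are highest at day 1, and Slc2a5 over Slc5a1 is higher from day 2 on than at days 0 and 1.

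Other sugar carriers, a list of 18 of which 11 were tested, gave calls in both directions. For this list and those below, the counts stand against these shares of all genes. From day 0 to day 1, 9.54% rose and 9.05% fell. To day 5, 11.4% rose and 13% fell from day 0, and 11.8% rose and 16.1% fell from day 1. At day 1 only Slc2a6 was called against day 0, higher from 0.0276 to 1.70 RPKM. By day 5, 5 had risen from day 0 and none had fallen, with a list median of 0.53. Slc5a4b, of the SGLT3 group, rose from 0.365 to 65.7 RPKM in mean level (5.55 ± 1.05 (SE; adjusted p = 0.00315)), Slc5a11, an inositol carrier, from 0.470 to 14.9 RPKM, Slc2a7 from 0.141 to 8.81 RPKM and Slc5a4a from 0.0493 to 2.84 RPKM. From day 1 to day 5, 6 rose and 2 fell, among them the same 4 genes as higher, and the list median was 0.67. Slc2a6 fell in that comparison from 1.70 to 0.0303 RPKM. Slc5a4a and Slc5a4b are close copies, so that reads may be split between them.

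Other amino acid and peptide carriers, 29 listed and 19 tested, were divided. At day 1, 2 had fallen from day 0 and none had risen, Slc7a8 (LAT2, basolateral) from 19.4 to 5.53 RPKM and Slc7a2, a cationic carrier, from 3.53 to 0.630 RPKM. By day 5, Slc6a20a (SIT1, a carrier of proline) rose from 0.267 to 28.0 RPKM (4.39 ± 0.89 (SE; adjusted p = 0.00464)), while Slc7a2, Slc7a1 and Slc38a1 fell, Slc7a1 from 29.4 to 14.3 RPKM and Slc38a1 from 12.7 to 5.90 RPKM. The list median was -0.17, as over all genes tested. In either direction 4 of the 19 were called from day 0 to day 5, against 24.4% of all genes. From day 1 to day 5, Slc6a20a, Slc7a8 and Slc16a10 rose, and Slc7a11, the cystine-glutamate exchanger, and Slc38a1 fell. The Slc7a8 fall at day 1 lost its call in the DNase-treated libraries (adjusted p = 0.114), with no filter (0.0579) and without any 1 of the 6 libraries of days 0 and 1 (0.0509 to 0.106), and its rise to day 5 in 6 alternatives (0.0515 to 0.0829), namely the DNase-treated libraries and leaving out replicate 1 or 2 of day 1 or any replicate of day 5.

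Among ion drivers and scaffolds of the brush border, 10 tested, 3 rose from day 0 to day 1, namely the sodium-proton exchangers Slc9a3 and Slc9a2 and their scaffold Slc9a3r1 (from 47.3 to 148 RPKM), and none fell. Against day 0, 5 rose by day 5 and none fell, among them Slc9a3r1, Slc9a3, Slc9a2 and Pdzk1, a scaffold that binds transporters, from 0.0587 to 4.13 RPKM (2.27 ± 0.42 (SE; adjusted p = 0.00272)). Pdzk1 was among the 2 that rose from day 1 to day 5. The list medians were 0.88 from day 0 and 0.19 from day 1.

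Genes that handle the absorbed sugar, 11 tested, gave 2 lower and none higher at day 1, Txnip, a glucose-responsive inhibitor of uptake, from 321 to 84.2 RPKM (-1.91 ± 0.22 (SE; adjusted p = 7.50e-05)) and the sugar-sensing factor Mlxipl from 108 to 43.0 RPKM. By day 5, 7 had risen from day 0 and Txnip had fallen. Among the 4 with the largest change were G6pc, which releases free glucose, from 1.09 to 54.5 RPKM (4.73 ± 0.72 (SE; adjusted p = 0.000665)), Fbp1 from 5.46 to 91.0 RPKM and Tkfc, which phosphorylates glyceraldehyde, from 131 to 569 RPKM. From day 1 to day 5, 8 rose and none fell, among them ketohexokinase Khk, which phosphorylates fructose, from 45.9 to 427 RPKM (3.19 ± 0.68 (SE; adjusted p = 0.00570)).

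Of 14 hydrolases that release sugars and amino acids, most of them of the brush border, 2 rose from day 0 to day 1, the meprin subunit Mep1b from 2.02 to 74.4 RPKM and the cytosolic dipeptidase Cndp2 from 26.5 to 82.6 RPKM. Against day 0, 8 rose by day 5 and none fell, with a median of 1.78. Mep1b, Ggt1 (from 0.786 to 66.7 RPKM), the aminopeptidase Enpep (from 3.40 to 75.8 RPKM) and sucrase-isomaltase Sis (from 94.6 to 789 RPKM) changed most. Ggt1, trehalase Treh, Sis and Enpep rose from day 1 to day 5. Sis, Lct, Anpep, Dpp4 and Mep1a are also among the 20 enterocyte markers.

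Of 17 tested transcription factors of enterocytes, the repressor Isx rose most from day 0 to day 5, from 0.0504 to 112 RPKM (6.64 ± 0.63 (SE; adjusted p = 1.14e-05)), and Creb3l3 and Gata5 rose as well, 3 higher and 1 lower in all. At day 1, 1 was higher than at day 0 (Gata5) and 2 were lower, among them Gata6. The list median from day 0 to day 5 was 0.11. In either direction 4 of the 17 were called from day 0 to day 5 and 3 from day 0 to day 1, against 24.4% and 18.6% of all genes. Among 19 targets of ATF4, the factor that raises amino acid carriers when amino acids are short, none rose from day 0 to day 5. The 2 that fell were Atf3 and the arginine carrier Slc7a1, while 11.4% of all genes rose and 13% fell. From day 1 to day 5, 1 rose and 2 fell. Their summed RPKM was highest in day 3 replicate 2, at 1352 against 539 and 630 in replicates 1 and 3 of that day.

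The genes closest to each carrier were found by Pearson's r of log2(RPKM + 1) over the 18 libraries, which share days and organoid lines, and r is a description only. Among the 3 genes closest to Slc5a1 were sucrase-isomaltase Sis (0.989) and galactose mutarotase Galm (0.986). Those of Slc2a2 included Slc7a9 (0.981) and Slc51b (0.962), those of Slc7a9 included Slc2a2 and Dhrs1 (0.970), and those of Slc7a7 included Slc7a9 (0.962) and Slc2a2 (0.955). Slc2a5 stood nearest to G6pc (0.976), Entrez 67247 (0.971; the table holds a date in place of its symbol) and Proz (0.971), and Slc15a1 to the organic cation exporter Slc47a1 (0.984), Slc51b (0.983) and H2-Q1 (0.981).

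Slc6a19 had looser neighbours, Cyp2j6 (0.934), Ugt1a6a (0.928) and Ugt1a9 (0.924), of which the last 2 share exons of the Ugt1a locus. Slc3a1 was nearest to Btnl1 (0.967), Smlr1 (0.965) and Tcn2 (0.965). The lowest values were those of Slc1a1, whose 3 closest included Fndc3b at 0.817 and Gas6 at 0.753. Slc10a2 was nearest to Cast (0.903), Serpinb1a (0.870) and Cdkl2 (0.858). With the day means removed, r was between 0.773 and 0.989 over all 30 pairs. These pairs were picked for a high r in the same libraries, so this is no separate check.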

How the data were processed

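Bulk messenger RNA was sequenced from 18 organoid libraries. The authors deposited RPKM per gene in 1 table, and per the submitters' processing notes bcl2fastq 2.17, STAR 2.5.2b and edgeR 3.20.5 were used with genome build mm10. Settings, annotation and strand use: not given in the sources used here. Groups are the days given by the labels. The members, gene lists and tests were chosen with earlier results of these data known.

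The tests took the 11111 genes that reached 1 RPKM in 3 or more libraries. limma 3.58.1 (R 4.3.3; lmFit, eBayes with a trend) was fitted to log2(RPKM + 1) of all 18 libraries with a coefficient for each day, which pools the spread of 6 groups of 3. Tests were two-sided, with Benjamini-Hochberg adjustment over all genes tested and calls at an adjusted p under 0.05. The fit was tested on simulated data with independent normal noise for each gene and library. That noise holds no shift shared by a whole library, so false calls from such shifts were not checked. Library sizes were implied by the steps between low RPKM values of 749 genes, whole within 0.02 reads; RPKM steps depend on gene length, so no count test was run. At 1 RPKM a gene has 43.0 to 53.9 reads per kilobase.

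Named genes are all members, their partners, up to 4 called genes with the largest change from each list and the 3 genes nearest each member; some of these are not reported here. Alternatives were pseudocount 0.1, no filter or 5 RPKM, quantile normalization, median-of-ratios rescaling, library weights (arrayWeights), only the days compared, DNase-treated libraries, leaving out libraries, and a replicate block. The titles give the mouse, which pairs libraries across days: deviations from the day mean had a median correlation of 0.143 over 47 pairs of the same mouse and -0.0648 over 88 pairs of different mice. The alternatives for the other gene lists were chosen after seeing the data.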

Additional observations from a re-analysis of the deposited data

How the results depend on the processing

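The number of carriers called from day 0 to day 1, 1 in the report, became 0 with a filter at 5 RPKM, quantile normalization or median-of-ratios rescaling (2 had an unadjusted p under 0.05 in limma in each; the filter removes Slc10a2, the carrier called), 3 when only these days were fitted (20.1% of all genes against 18.6%) or without 3 libraries (day 0 replicate 1, day 3 replicate 2, day 4 replicate 3; 21.3%), and 5 with library weights (39.3%). From day 0 to day 5 it was 3 in the DNase-treated libraries (11.8% against 24.4%). From day 1 to day 5, 5 calls became 3 with no filter (14.8% of all genes against 27.8%), 9 when only these days were fitted (38%) and 2 in the DNase-treated libraries (15.1%). The F test's 4 calls became 1 with no filter (15.5% of all genes against 25.3%), 9 with library weights (81.8%) or without the 3 libraries (43.8%) and 0 in the DNase-treated libraries (12.6%; 5 with an unadjusted p under 0.05 in limma), and from day 3 to day 4 library weights called 4 (31.2% of all genes). Library weights ran from 0.246 (day 4 replicate 3) to 8.56 (day 4 replicate 2). Leaving out 1 library at a time gave 0 to 2 calls from day 0 to day 1 (10.6% to 21.6% of all genes) and 2 to 8 from day 0 to day 5 (7.97% to 31.9%). It gave 2 to 6 from day 1 to day 5 (13.3% to 35.6%), 1 to 8 in the F test (14.6% to 45.4%) and 0 to 0 in the other steps (0% to 0.477%). The F test gave 1 or 2 (14.6% to 20.6% of all genes) without any replicate of day 0, replicate 1 or 2 of day 1, replicate 2 of day 4 or any of day 5. It gave 8 (45.4%) without replicate 3 of day 4, against 25.3% of all genes in the full fit. With the mouse as a replicate block, 1 carrier was called from day 0 to day 1 (19.3% of all genes) and 7 from day 0 to day 5 (27.1%). From day 1 to day 5 it called 6 (34.5%), and in the F test 5 (30.5%). With the replicate number as the block the counts in the same order were 1, 7, 5 and 5 (22.1%, 30.4%, 32.8% and 31.7%). Besides the call of Slc15a1 in the report, the block changed no call between 2 days; in the F test both blocks added Slc2a2. Of 783 counts for the 9 other gene lists under these alternatives, 651 stayed within 1.5 times the value of the full fit.

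Signs turned for changes that no test called. At day 1 against day 0, Slc2a5 was at 0.0016 in the DNase-treated libraries and at -0.58 to 0.14 leaving out 1 library (above 0 without day 1 replicate 1). Slc6a19 was at -0.12 with library weights, -0.051 without the 3 libraries and -0.46 to 0.91 leaving out 1 library (below 0 without replicate 1 or 3 of day 0 or 3 of day 1), and Slc1a1 at -0.52 to 0.00073 (above 0 without day 0 replicate 3). At day 5 against day 0, leaving out 1 library gave Slc1a1 -0.025 to 0.49 (below 0 without day 0 replicate 2) and Slc10a2 -0.14 to 0.067 (above 0 without day 0 replicate 1). Slc10a2 was at 0.093 with library weights, 0.080 in the DNase-treated libraries and 0.067 without the 3 libraries. Median-of-ratios rescaling moved the median of all genes by 0.15 from day 0 to day 5 and by 0.14 from day 1, and the share of called genes that were higher from 42.3% to 54.6% in the latter. No called carrier changed direction in any alternative. The depth limits Slc10a2 and the day 0 values of Slc15a1 most, which rest on under 100 implied reads per library.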
